A study of Saccharomyces cerevisiae with 13 samples.

Results

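The general stress response genes examined here are 36 yeast genes chosen by symbol from those known to be induced by many kinds of stress, among them HSP12, CTT1 and DDR2. All 36 listed genes were measured, each by 1 probe set, out of 5446 protein-coding genes of Saccharomyces cerevisiae on the array. A probe set on the deposited arrays gives a linear intensity, and log2 of that intensity is called the log2 signal. By this measure 34 of the 36 genes were above the array background on all 13 arrays, and the exceptions were XBP1 and TKL2.

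The arrays compare haploid wild-type cells with 5 strains that each lack 1 tRNA gene, to ask whether loss of a tRNA gene changes mRNA levels in rich medium at 30 °C. Wild type has 3 arrays and each deletion strain has 2. The stated parent of all strains is Y5565, a MATα background. Its stated genotype has HIS3 under the MFA1 promoter at can1Δ, LEU2 under the MFα1 promoter at mfα1Δ, and the further alleles leu2Δ0, ura3Δ0 and lyp1Δ. Every strain, wild type included, carries a hygromycin B resistance cassette. In a deletion strain the cassette takes the place of the tRNA gene, and in wild type it was placed upstream of another tRNA locus. The study's SC (single-copy) group has 6 arrays, from ΔtL(GAG)G, ΔtM(CAU) and ΔtR(CCU)J. The label tM(CAU) names no gene copy, and the study's text points to the initiator methionine tRNA gene. The MC (multi-copy) group has 4 arrays, from ΔtH(GUG)G1 and ΔtR(UCU)M2. Since no probe set measures a tRNA gene, the deletions themselves could not be checked on the arrays. Cells were harvested in mid log phase. The labels call the arrays of a strain biological replicates, and p-values reflect the spread between them.

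Budding yeast answers heat, oxidants, osmotic shock, starvation and slow growth with a shared programme of gene expression. The related zinc finger activators Msn2 and Msn4 enter the nucleus when protein kinase A activity is low and bind short stress response elements in the promoters of its target genes. Many of the same promoters also respond to the osmotic stress kinase Hog1, the oxidant sensor Yap1, the heat shock factor Hsf1 or the starvation kinase Rim15. The products hold unfolded proteins, destroy peroxides and aldehydes, supply NADPH, protect dry or dormant cells and adjust proteolysis in the vacuole. In cells growing fast on glucose these genes are kept low.

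Between 96.5% and 98.3% of all genes were above background on each array, and the median gene signal was 491 to 626. Of 4 markers of alpha cells, MF(ALPHA)2, STE3 and SAG1 lay between 10.16 and 13.10 in log2 signal on every array, while 7 markers of a cells stayed at or under 7.08. The remaining alpha marker, MF(ALPHA)1, which the stated genotype lists as deleted, lay between 2.54 and 4.89 on the 3 wild-type and 4 MC arrays and between 12.44 and 12.80 on the 6 SC arrays. The signal on the SC arrays does not match the stated mfα1Δ allele, so a genotype shared by all strains is in doubt. The SC strains differed from the wild-type and MC strains in this transcript as well as in the tRNA gene. In any comparison of SC strains with wild type or with MC strains, these differences cannot be told apart. The 3 SC strains shared the high MF(ALPHA)1 signal, and the other 4 deletions, with which ΔtR(CCU)J is also compared, join SC and MC strains.

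The stress genes varied widely among wild-type arrays. Their median range over the 3 arrays was 0.92 log2 units, compared with 0.39 over all genes, and 17 of the 36 (47.2%) had a range over 1, against 8.7% of all genes. The median within-group standard deviation was 0.50 for the stress genes and 0.20 for all genes. These spreads were not matched for signal, and the stress genes were dimmer. Their median of the mean log2 signal was 7.26, against 9.07 over all genes. Most of them shared a pattern: 26 of 36 were highest on wild-type replicate 3, 8 on replicate 2 and 2 on replicate 1, whereas all genes divided into 29.7%, 33.6% and 36.7%. None of the 36 was lowest on wild-type replicate 3.

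HSP30, which encodes a plasma membrane protein that restrains the proton pump Pma1, had the widest range. Its log2 signal was 5.44, 10.02 and 5.74 on wild-type replicates 1 to 3, and it was 10.07 on ΔtR(UCU)M2 replicate 1 and 9.99 on ΔtH(GUG)G1 replicate 1. On the other 8 deletion arrays it lay between 5.0 and 7.66. The 3 high arrays thus belonged to 3 different strains. Over the genes outside the list, each deletion array was compared with the 3 wild-type arrays, and those same 2 deletion arrays were the only ones that correlated best with wild-type replicate 2. Replicate 1 of each SC strain was closest to wild-type replicate 1, and replicate 2 of all 5 deletion strains was closest to wild-type replicate 3. These sets of arrays are inferred from the values, since the labels name no batch.

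XBP1 came next with 2.78, but it was not above background on any wild-type array, and SIP18 and GRE2 followed. SIP18, a hydrophilin that protects cells during drying, read 5.49, 6.81 and 7.99 in wild type. GRE2, a methylglyoxal reductase, read 9.86, 8.77 and 10.93. GRE2 was lowest on the wild-type array where HSP30 was highest, so these genes did not move as a block. STF2, a desiccation factor also known from the mitochondrial ATP synthase, read 8.61, 10.75 and 9.53. SPI1, a cell wall protein, and PNC1, the nicotinamidase of the NAD salvage pathway, were likewise highest on wild-type replicate 2, at 9.07 and 10.09. At the other end, CTT1, the cytosolic catalase, read 6.42, 6.53 and 6.45, a range of 0.12, and its 13 arrays spanned 6.10 to 6.74. RTN2, a reticulon of the endoplasmic reticulum, and AMS1, the vacuolar alpha-mannosidase, had wild-type ranges of 0.16 and 0.25.

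**Figure D1:**
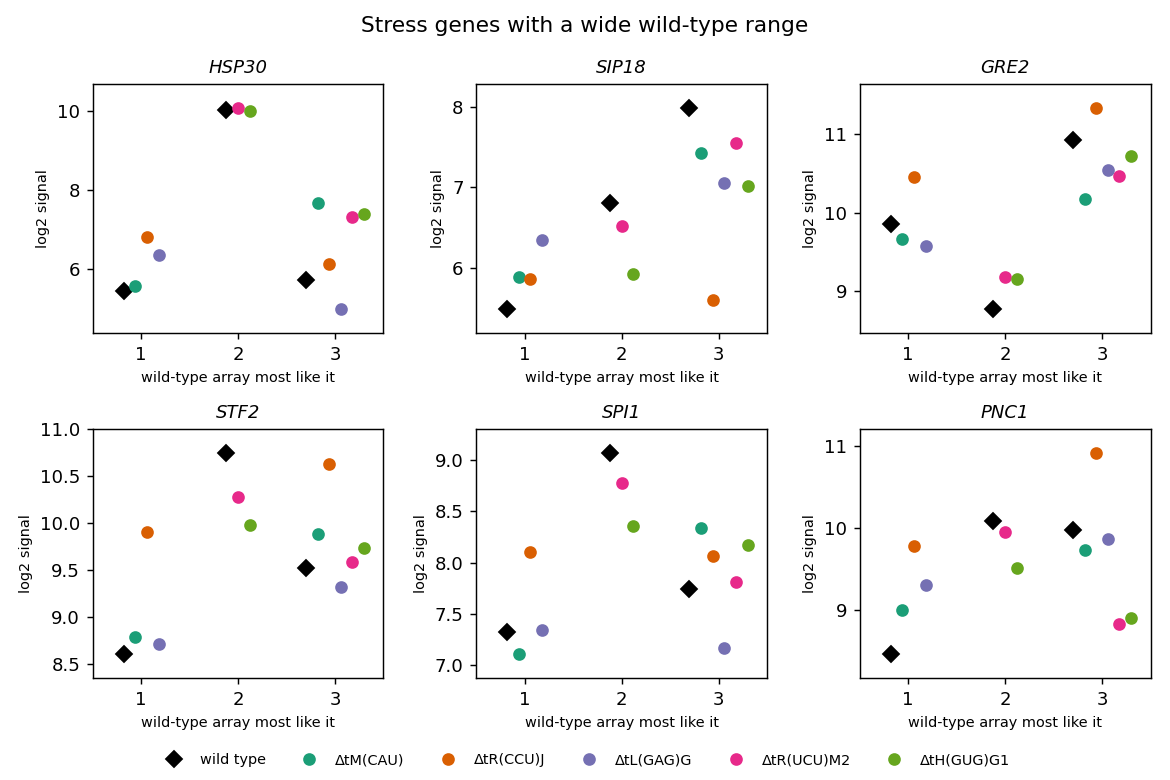
Log2 signal (y axis) of 6 stress genes on all 13 arrays, grouped on the x axis by the wild-type replicate that each array resembles most over genes outside the list; diamonds are wild-type arrays and circles deletion arrays, coloured by strain. HSP30 sits near 10 on the 3 arrays of set 2 and at 7.66 or lower elsewhere.

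Array by array, the median deviation of the 36 genes from the wild-type mean was -0.25, -0.16 and 0.41 on the wild-type arrays themselves. It was 0.70 and 0.68 in ΔtR(CCU)J, higher than on any of the other 11 arrays. On the remaining deletion arrays it ran from -0.33 (ΔtH(GUG)G1 replicate 1) to 0.33 (ΔtM(CAU) replicate 2), all inside the span of wild type apart from the lowest 2, at -0.25 and -0.33. The same median over all genes stayed between -0.04 and 0.22. Replicate 2 was above replicate 1 for 31 of the 36 genes in ΔtM(CAU), 28 in ΔtH(GUG)G1 and 25 in ΔtR(UCU)M2, but for 17 in ΔtR(CCU)J and 13 in ΔtL(GAG)G.

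**Figure D2:**
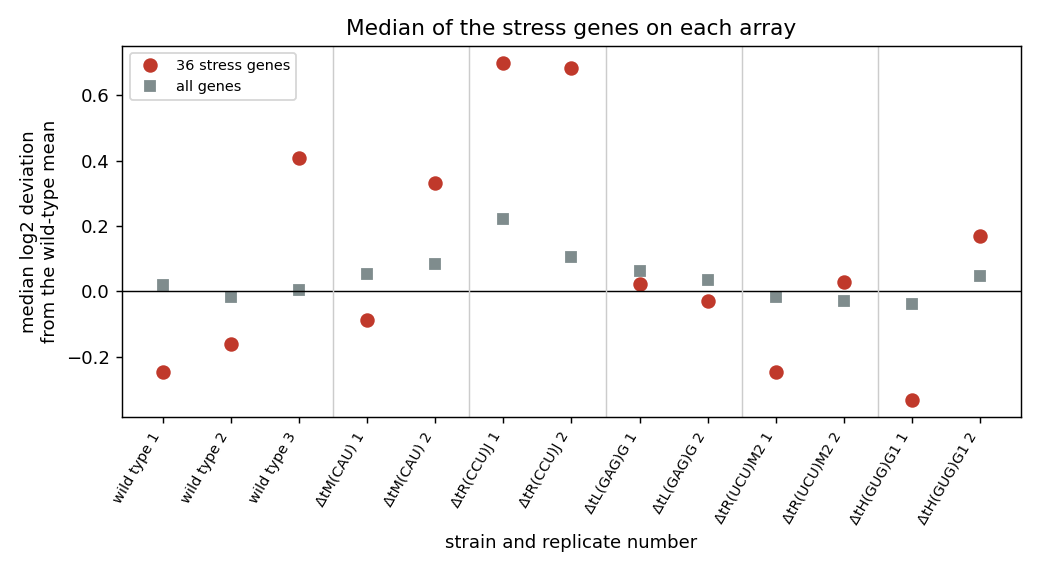
Median log2 deviation from the wild-type mean (y axis) of the 36 stress genes (circles) and of all 5446 genes (squares) on each of the 13 arrays (x axis). The 2 ΔtR(CCU)J arrays, at 0.70 and 0.68, are the highest, and the 3 wild-type arrays run from -0.25 to 0.41.

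In ΔtR(CCU)J, the strain without the only tRNA gene that reads the arginine codon AGG by full pairing, 33 of the 36 stress genes had a positive difference from wild type. Of all genes, 67.1% had a positive difference in this comparison. The median log2 difference of the stress genes was 0.72, compared with 0.17 over all genes. By limma, at a Benjamini-Hochberg adjusted p under 0.05 over all 5446 genes, 7 of 36 (19.4%) were called, where 8.56% of all genes were called. Of these, 6 rose (16.7%, against 6.63% of all genes) and 1 fell (2.8%, against 1.93%). TMA10, GAD1, YGP1, MSC1, GCY1 and RTN2 rose and DDR48 fell. At an unadjusted p under 0.05 there were 15 higher and 1 lower, together 44.4%, against 31.7% of all genes.

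**Figure D3:**
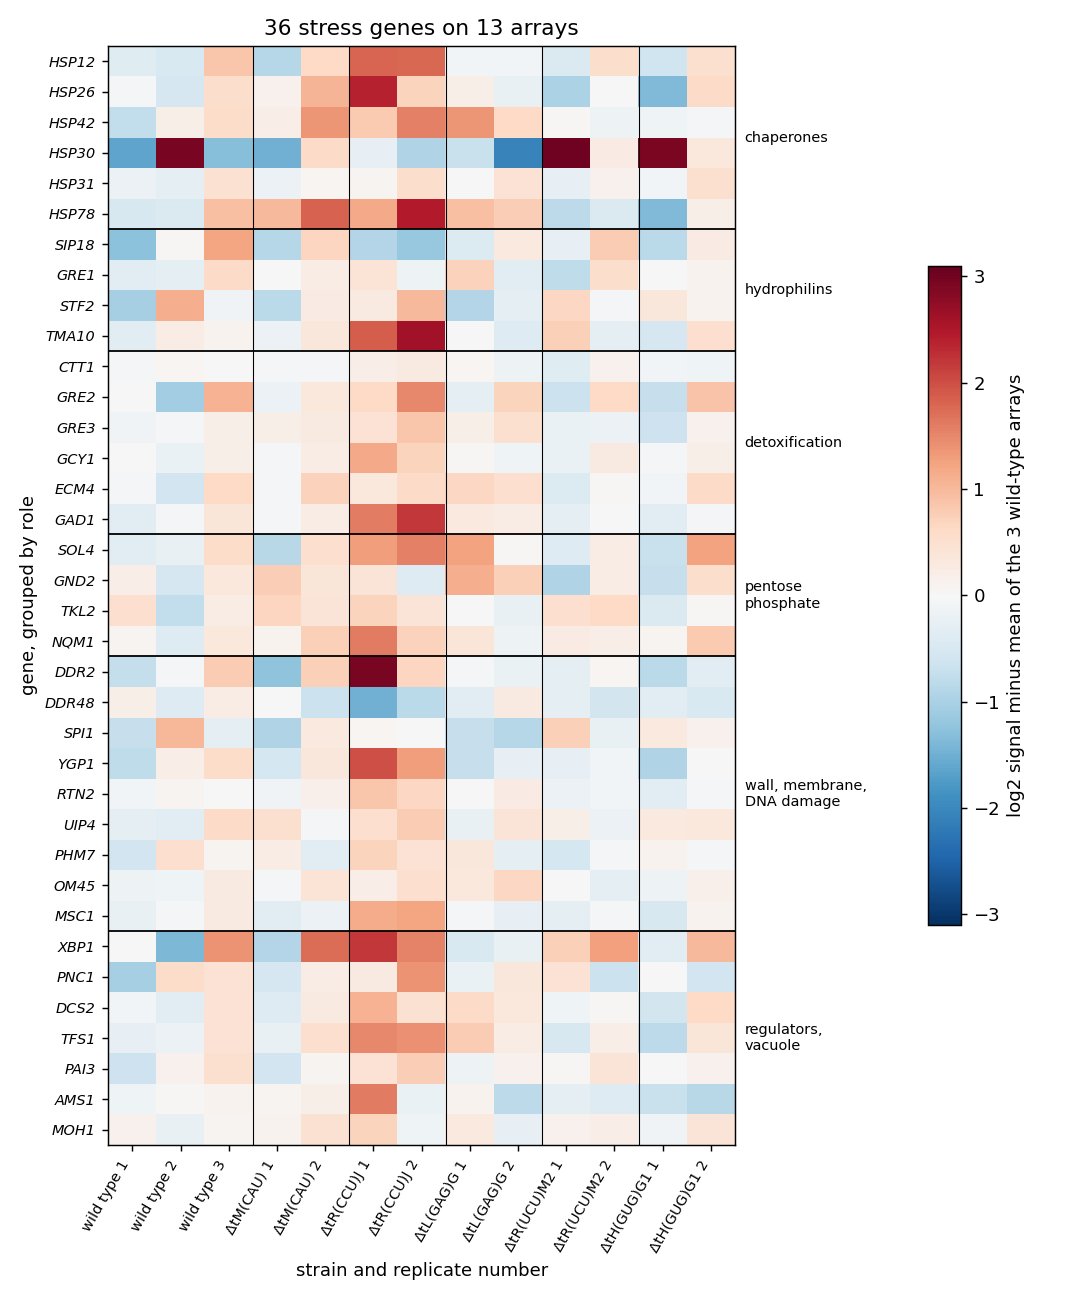
Log2 signal of the 36 stress genes (y axis, grouped by role) on the 13 arrays (x axis), shown as the difference from the mean of the 3 wild-type arrays, red above and blue below. The ΔtR(CCU)J columns are the reddest, while HSP30 is highest on wild-type replicate 2, ΔtR(UCU)M2 replicate 1 and ΔtH(GUG)G1 replicate 1.

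Among 6 chaperone genes, 0 were called and 5 had positive differences (67.1% of all genes did), with a median of 1.36. HSP12 and HSP78 passed the threshold with the replicate number or the inferred array sets as a block. HSP12, a small membrane-associated heat shock protein, read 8.59, 8.51 and 9.83 in wild type and 10.78 and 10.75 in ΔtR(CCU)J, and the other 8 deletion arrays lay between 8.10 and 9.59 (median 8.89). Both ΔtR(CCU)J arrays were above all 11 others, and the difference from wild type was 1.79 (standard error 0.54, adjusted p = 0.0667). HSP26, a small heat shock protein that holds unfolded proteins, read 7.79, 7.29 and 8.37 in wild type but 10.21 and 8.5 in ΔtR(CCU)J, with a difference of 1.54 (adjusted p = 0.144). HSP78, the mitochondrial disaggregase, read 6.48, 6.53 and 7.90 against 8.14 and 9.44, with a difference of 1.82 (standard error 0.58, adjusted p = 0.0744). For HSP26 and HSP78, ΔtM(CAU) replicate 2 reached into the ΔtR(CCU)J range, at 8.86 and 8.81. HSP42, another small heat shock protein, differed by 1.19 (adjusted p = 0.107), HSP31, a methylglyoxalase of the DJ-1 family, by 0.33 (adjusted p = 0.461) and HSP30 by -0.60 (standard error 1.43, adjusted p = 0.799).

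Of the 4 hydrophilin and desiccation genes, 1 was called as rising, as were 6.63% of all genes. TMA10, a relative of STF2 found with ribosomes, read 5.73, 6.31 and 6.17 in wild type and 7.94 and 8.68 in ΔtR(CCU)J, and the other 8 deletion arrays lay between 5.55 and 6.80 (median 5.98). The groups did not overlap, and its difference of 2.24 (standard error 0.40, adjusted p = 0.0189), a 4.73-fold higher signal, was the highest of the 36. STF2 itself differed by 0.64 (adjusted p = 0.466), and its wild-type arrays spanned the ΔtR(CCU)J values of 9.91 and 10.63. SIP18 read 5.86 and 5.60 in ΔtR(CCU)J, inside its wild-type range, with a difference of -1.03 (standard error 0.71, adjusted p = 0.343). GRE1, the other hydrophilin, differed by 0.14.

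All 6 detoxification genes had positive differences (67.1% of all genes did), with a median of 0.79. Calls as rising were made for 2 of the 6 and for 6.63% of all genes. GAD1, glutamate decarboxylase, which is needed for tolerance to oxidants, read 6.74, 7.04 and 7.46 in wild type and 8.66 and 9.26 in ΔtR(CCU)J. The other 8 deletion arrays lay between 6.73 and 7.39 (median 7.06), so the ΔtR(CCU)J arrays stood more than 1 log2 unit clear of every other array. Its difference was 1.88 (standard error 0.24, adjusted p = 0.00988), the smallest adjusted p of the list. GCY1, a glycerol dehydrogenase, read 7.83, 7.62 and 8.0 against 8.99 and 8.5, with the other deletion arrays between 7.60 and 8.10 (median 7.81), and rose by 0.93 (standard error 0.20, adjusted p = 0.0306). GRE3, an aldose reductase, differed by 0.66 (adjusted p = 0.0891), GRE2 by 1.05 (adjusted p = 0.325) and ECM4, a glutathione transferase, by 0.46 (adjusted p = 0.402). CTT1 read 6.67 and 6.74, above all 11 other arrays, yet its difference was 0.24 (standard error 0.15, adjusted p = 0.288).

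None of the 4 minor isoenzymes of the pentose phosphate pathway, a source of NADPH, was called. NQM1, the minor transaldolase, read 6.34, 5.87 and 6.59 in wild type and 7.87 and 6.97 in ΔtR(CCU)J, a difference of 1.16 (adjusted p = 0.0651), with ΔtH(GUG)G1 replicate 2 at 7.09 between them. SOL4, a 6-phosphogluconolactonase, differed by 1.43 (adjusted p = 0.145), TKL2, a transketolase, by 0.54 (adjusted p = 0.283) and GND2, a phosphogluconate dehydrogenase, by 0.00 (adjusted p = 0.997).

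The 9 genes of the cell wall, membranes and DNA damage response held 4 of the calls, 1 of them a fall, where 8.56% of all genes were called. YGP1, a secreted glycoprotein made as nutrients run down, read 8.37, 9.37 and 9.72 in wild type and 11.16 and 10.46 in ΔtR(CCU)J, with the other deletion arrays between 8.21 and 9.51 (median 8.90), and it rose by 1.66 (standard error 0.44, adjusted p = 0.0493). MSC1, known for a role in meiotic recombination between sister chromatids, read 6.98, 7.17 and 7.50 against 8.37 and 8.44, and rose by 1.19 (standard error 0.20, adjusted p = 0.0165). RTN2 read 5.56, 5.72 and 5.66 against 6.5 and 6.29, and rose by 0.75 (standard error 0.15, adjusted p = 0.0252). In each of these 3 genes the ΔtR(CCU)J arrays were above all 11 others; the remaining deletion arrays reached 7.33 for MSC1 (lowest 6.73, median 7.0) and 5.91 for RTN2 (lowest 5.32, median 5.60).

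DDR48, a DNA damage responsive gene for a hydrophilic protein, was the member that fell. Its log2 signal was 11.14, 10.56 and 11.18 in wild type, 9.47 and 10.13 in ΔtR(CCU)J and 10.30 to 11.23 (median 10.64) on the other 8 deletion arrays. It fell by 1.16 (standard error 0.29, adjusted p = 0.0426), and both ΔtR(CCU)J arrays were below all others. The call was lost with the replicate number as a block, when the difference was -1.05 (limma, adjusted p = 0.0921). DDR48 lies beside PAI3, which in turn lies beside SIP18, on chromosome XIII. PAI3, the inhibitor of vacuolar proteinase A, differed by 0.60 (adjusted p = 0.224), so the neighbours did not share a direction. DDR2, the other DNA damage responsive gene of the list, read 6.39, 7.06 and 7.92 in wild type and 10.07 and 7.80 in ΔtR(CCU)J. Its replicate 1 was above and its replicate 2 within the wild-type range, and the difference was 1.81 (standard error 0.72, adjusted p = 0.122). SPI1, UIP4, PHM7 and OM45 differed by 0.04 to 0.65 without a call.

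The 7 regulators, inhibitors and vacuolar enzymes all had positive differences (67.1% of all genes did), with a median of 0.77 and 0 calls, although TFS1 and PAI3 passed with either block. TFS1, an inhibitor of carboxypeptidase Y, read 7.06, 7.12 and 7.76 in wild type and 8.80 and 8.72 in ΔtR(CCU)J, with the other deletion arrays between 6.49 and 8.10 (median 7.54). It was above all 11 others on both arrays, and the difference was 1.45 (standard error 0.40, adjusted p = 0.052). XBP1, a transcriptional repressor induced by stress and in quiescent cells, was above background on ΔtM(CAU) replicate 2 and on both ΔtR(CCU)J arrays, at 4.09, 4.55 and 3.91, and on no wild-type array (2.38, 0.97 and 3.75). Taking the wild-type arrays at the higher of their signal and background, it was at least 1.1-fold higher in ΔtR(CCU)J, and the test gave an adjusted p of 0.17. AMS1 read 7.58 and 5.78 in ΔtR(CCU)J against 5.84, 6.01 and 6.09 in wild type, so replicate 1 was high and replicate 2 was not. PNC1 differed by 0.84, DCS2, a regulator of mRNA cap scavenging, by 0.77 and MOH1 by 0.28.

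**Figure D4:**
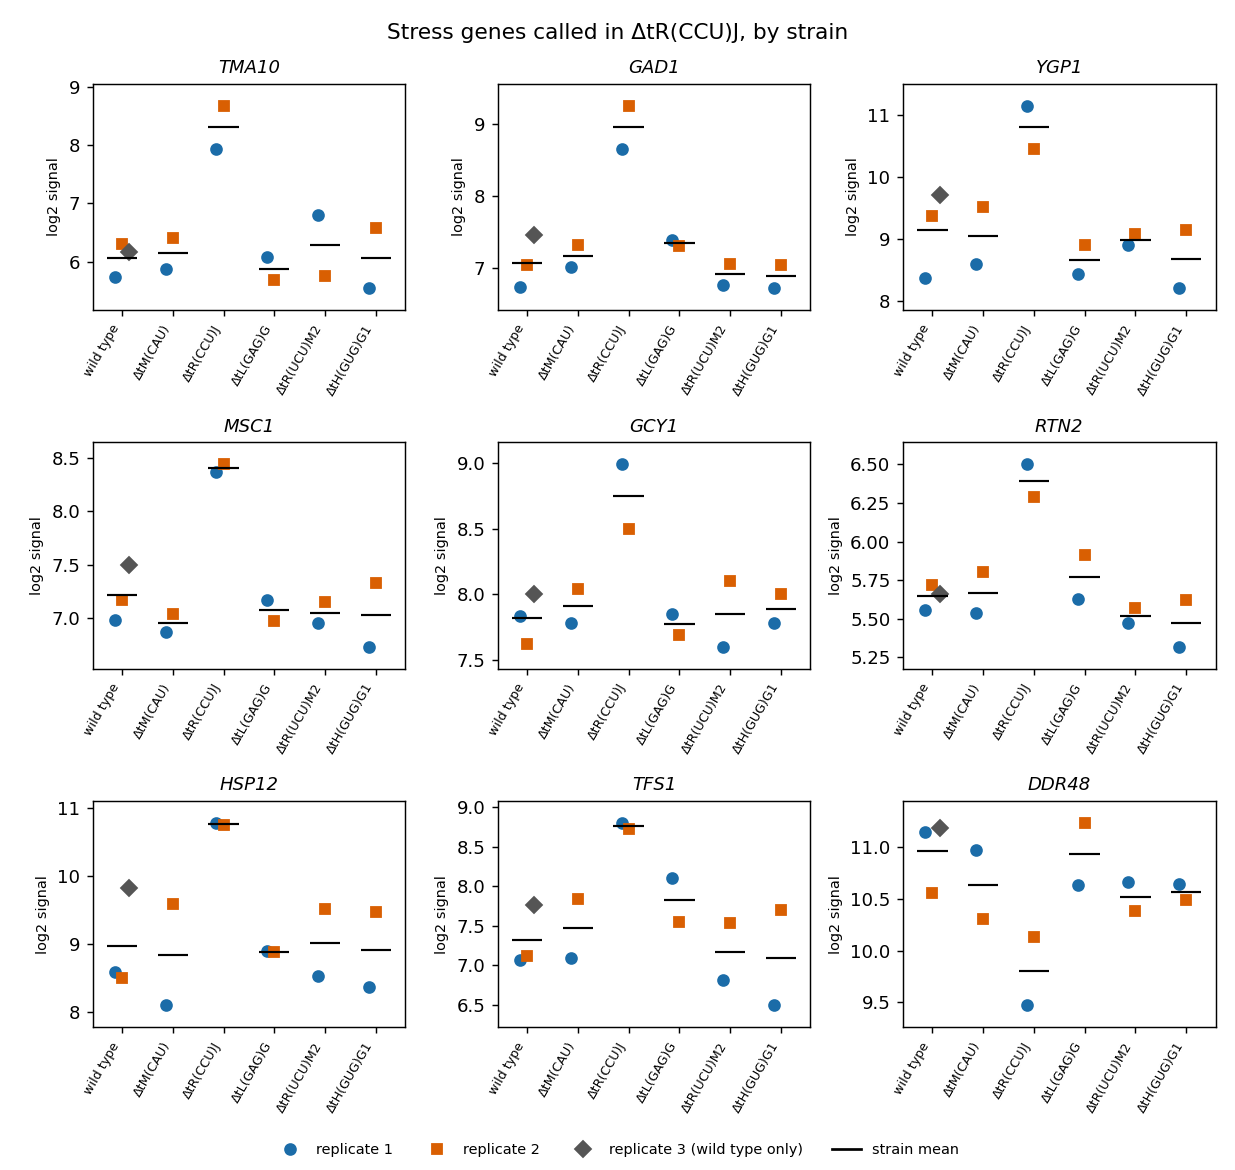
Log2 signal (y axis, own scale for each panel) of the 9 stress genes called in ΔtR(CCU)J against wild type or against the other deletions, by strain (x axis); circles, squares and diamonds are replicates 1, 2 and 3, and bars are strain means. In 8 panels both ΔtR(CCU)J points lie above all others, and in the DDR48 panel, at 9.47 and 10.13, below.

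Counted by array values alone, both ΔtR(CCU)J arrays lay above the 3 wild-type arrays for 17 of the 36 genes (47.2%, against 31.6% of all genes) and below them for 1 (2.8%, against 12.5%). They lay above all 11 other arrays for 10 genes (27.8%, against 19.6%) and below for 1 (2.8%, against 6.7%). Set against the wild-type array each resembled most, both ΔtR(CCU)J arrays were higher for 28 of the 36 genes (77.8%, against 52.0% of all genes). Both were lower for 1 (2.8%, against 24.3%). The median within-pair difference was 1.23 for replicate 1 and 0.35 for replicate 2, against 0.19 and 0.10 over all genes. GAD1 differed by 1.92 and 1.79 within the pairs, TMA10 by 2.21 and 2.51, MSC1 by 1.39 and 0.94 and YGP1 by 2.79 and 0.74, whereas HSP26 (2.42 and 0.13) and DDR2 (3.67 and -0.12) differed mainly on replicate 1.

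The count rested on a pooled estimate of spread and on single arrays. Fitted on the 5 arrays of these strains alone, 0 members and 0.0918% of all genes were called, with adjusted p = 0.124 by limma for GAD1, MSC1 and TMA10. With the replicate number as a block, which in effect sets aside wild-type replicate 3, there were 10 (7.62% of all genes), and with the inferred array sets as a block 14 (22.5% of all genes). Both blocks added HSP12, HSP78, PAI3 and TFS1, the replicate block lost DDR48, and the array sets also added GRE3, PNC1 and STF2. Without ΔtR(CCU)J replicate 1 there was 1, GAD1, and without wild-type replicate 1 or 2 there were 3 and 4.

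Markers of other states were measured in ΔtR(CCU)J too, where 8.56% of all genes were called, and their part in the result was not tested. Of 17 genes induced when glucose runs out, 0 rose and 1 (5.9%), the lactate transporter gene JEN1, fell by 1.37 (limma, adjusted p = 0.0416). The summed signal of these genes was 2735 and 2131 in ΔtR(CCU)J against 2086 to 2576 in wild type. Of 8 sporulation genes, 1 (12.5%), the meiotic kinase gene IME2, rose by 1.05 (limma, adjusted p = 0.0174), and their sum was 940.5 and 568.4 against 539.1 to 675.8. Of the 7 a-cell markers 0 were called, with sums of 512.2 and 342.1 against 304.0 to 370.4. Among the 4 alpha markers MF(ALPHA)1 was called (25.0%). The other 3 differed by -0.64 (MF(ALPHA)2, adjusted p = 0.193), -0.60 (STE3, adjusted p = 0.126) and -1.12 (SAG1, adjusted p = 0.0665), and their summed signal was 5348 and 8115 in ΔtR(CCU)J against 8315 to 15411 in wild type, below all 3 wild-type arrays.

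Against the mean of the other 4 deletions, a comparison that uses the same 2 ΔtR(CCU)J arrays but no wild-type array for its difference, 9 of the 36 stress genes (25.0%) were called, where 15.2% of all genes were. There were 8 that rose (22.2%, against 11.8%) and 1 that fell (2.8%, against 3.38%), and the median was 0.76, against 0.15 for all genes. TMA10 differed by 2.22 (adjusted p = 0.0063), GAD1 by 1.88 (adjusted p = 0.00307), YGP1 by 1.96 (adjusted p = 0.0134) and MSC1 by 1.38. GCY1, RTN2, HSP12 and TFS1 rose by 0.89, 0.79, 1.85 (adjusted p = 0.0294) and 1.38 (adjusted p = 0.0279), and DDR48 fell by 0.86 (adjusted p = 0.0494). DDR2, at 2.08, just missed the threshold (adjusted p = 0.0505). DDR2 lay between 5.88 and 7.86 (median 6.87) on the other 8 deletion arrays. Without ΔtR(CCU)J replicate 1 the count was 3, namely GAD1, MSC1 and TMA10, and with the replicate block DDR48 lost its call (adjusted p = 0.0667). Other lists were set against the same 15.2% of all genes. Calls were made for 3 of 4 alpha markers and 4 of 8 sporulation genes, both above that share. The 2 of 17 glucose depletion genes called (11.8%) were below it, and 0 of 7 a-cell markers were called. MF(ALPHA)1 was among the alpha markers called and rose by 4.39. STE3 and SAG1 of the alpha markers fell by 0.78 and 1.48, JEN1 and SFC1 of the glucose depletion genes by 1.44 and 1.30, and among sporulation genes IME2, NDT80 and SMK1 rose by 1.09, 1.13 and 0.73 while SPS4 fell by 0.66. Their part in the result was not tested.

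The other 4 deletion strains, compared with the same 3 wild-type arrays, had no stress gene called. In ΔtM(CAU), 0 of 36 were called by limma (0.0367% of all genes), the median difference was 0.07, and 1 gene, HSP78, had an unadjusted p under 0.05 (2.8%, against 2.17% of all genes). HSP78 read 7.98 and 8.81, above the 3 wild-type arrays, with a difference of 1.42 (standard error 0.58, adjusted p = 0.987), and HSP42 (7.74 and 8.90) and HSP26 (7.95 and 8.86) followed with 0.80 and 0.59. Both genes overlapped wild type, where HSP42 read 6.77, 7.70 and 8.10. In ΔtL(GAG)G, 0 were called (0.0551% of all genes), the median was 0.02, and OM45, a mitochondrial outer membrane protein, had an unadjusted p under 0.05 (2.8%, against 7.93% of all genes) with a difference of 0.48 (adjusted p = 0.617). Its most extreme differences were -1.38 for HSP30 (6.37 and 5.0), 0.98 for HSP42 (8.88 and 8.13) and 0.94 for GND2 (7.88 and 7.50, against 6.96, 6.23 and 7.08). HSP42 and GND2 were above the wild-type arrays on both, and the HSP30 difference was 0.092 without wild-type replicate 2.

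In ΔtR(UCU)M2, 0 were called (0% of all genes), and in ΔtH(GUG)G1 0 (0% of all genes), with 0 members at an unadjusted p under 0.05 in either. Their medians were -0.10 and -0.03. HSP30 had the highest difference in both, 1.62 (standard error 1.43), from replicate 1 at 10.07 and 9.99 and replicate 2 at 7.31 and 7.39. Without wild-type replicate 2 the HSP30 difference was 3.10 in each, and without a strain's own replicate 1 it was 0.323 in ΔtH(GUG)G1 and 0.245 in ΔtR(UCU)M2. Set against the wild-type array it resembled most, ΔtR(UCU)M2 was lower on both arrays for 18 of the 36 genes (50%, against 34.6% of all genes) and ΔtH(GUG)G1 for 17 (47.2%, against 27.6%). The within-pair medians were -0.15 and -0.35 in ΔtR(UCU)M2 and -0.27 and -0.12 in ΔtH(GUG)G1. Over all genes they were -0.008 and -0.033 in ΔtR(UCU)M2 and -0.026 and 0.04 in ΔtH(GUG)G1. AMS1 in ΔtH(GUG)G1, at 5.30 and 5.13 against 5.84, 6.01 and 6.09 in wild type, differed by -0.77 (standard error 0.44) and HSP78, at 5.59 and 7.14, by -0.61. In ΔtR(UCU)M2, HSP78, at 6.17 and 6.53, differed by -0.62, and XBP1, at 3.11 and 3.64, was above background in neither strain, so no difference is given.

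**Figure D5:**
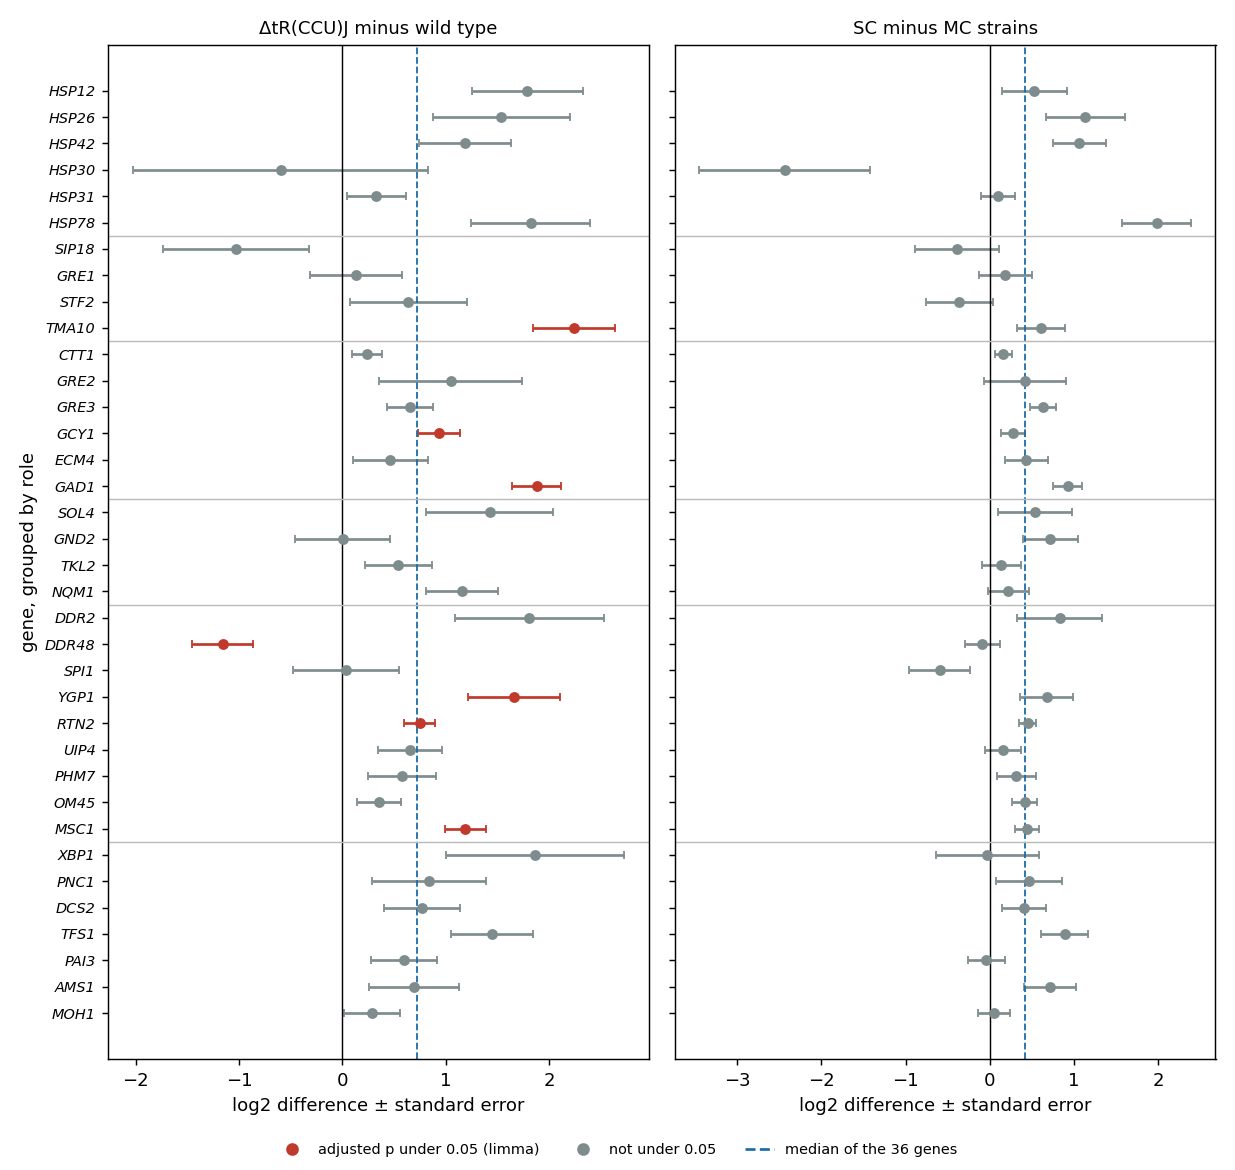
Log2 difference with its standard error (x axis) of each of the 36 stress genes (y axis, grouped by role) for ΔtR(CCU)J minus wild type (left) and the SC minus the MC strains (right); red marks an adjusted p under 0.05 and the dashed line the median of the 36. The medians are 0.72 and 0.41, and 7 genes are red on the left and 0 on the right.

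Between the SC and MC groups, 0 of 36 stress genes were called by limma (0.22% of all genes). A positive difference was seen for 29 of the 36 and for 65.5% of all genes, and the median was 0.41, against 0.11 for all genes. At an unadjusted p under 0.05 there were 10 higher and 1 lower, together 30.6%, close to the 29.7% of all genes in this comparison. GAD1 differed by 0.92 (standard error 0.17, adjusted p = 0.0505) and HSP78 by 1.98 (standard error 0.41, adjusted p = 0.0532). These standard errors and p-values rest on the spread between arrays of a strain. They do not measure the spread between strains of a group. The GAD1 strain mean was 8.96 for ΔtR(CCU)J, 7.17 and 7.35 for the other SC strains, and 6.92 and 6.89 for the MC strains. Its group difference thus came mainly from ΔtR(CCU)J. With the replicate number as a block GAD1 and HSP78 passed, so the count was 2 (1.05% of all genes). HSP78 read 7.98, 8.81, 8.14, 9.44, 7.90 and 7.73 on the SC arrays and 6.17, 6.53, 5.59 and 7.14 on the MC arrays, with no overlap. The 6 SC arrays lay above the 4 MC arrays for 3 of the 36 genes (8.3%, against 5.47% of all genes), HSP42, HSP78 and GRE3, and below for 0 (against 2.15%).

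The contrast was smaller without ΔtR(CCU)J, when the median over the 36 genes was 0.11 and 0 were called. HSP30 gave the most negative difference, -2.43 (standard error 1.01, adjusted p = 0.144), and HSP26 differed by 1.13 (adjusted p = 0.142), with the SC arrays between 7.58 and 10.21 and the MC arrays at 6.83, 7.83, 6.45 and 8.41. Within the arrays numbered 1 and 2 HSP30 differed by -3.78 and -1.09, and HSP26 by 2.08 and 0.19. With the inferred array sets as a block HSP30 differed by -0.65 and HSP26 by 0.50. Within the arrays numbered 1, where the nearest wild-type array was replicate 1 for the SC strains and replicate 2 for the MC strains, the median was 0.55, and within those numbered 2, where all resembled wild-type replicate 3, it was 0.15. Leaving out wild-type replicate 2 gave 2 calls, GAD1 and HSP78, and the count also changed when certain single deletion arrays were left out. The share of all genes called in those fits is not given here, so these counts are not read as changes in the stress genes alone.

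Other targets of Msn2 and Msn4 were measured beside these genes, among them genes of trehalose, glycogen and hexose phosphorylation and of redox defence. In ΔtR(CCU)J, 10 of 27 (37.0%, against 6.63% of all genes) rose and 0 fell (against 1.93%) compared with wild type, with a median difference of 0.59. TSL1, a subunit of trehalose synthase, read 7.63, 7.53 and 7.92 in wild type and 9.47 and 9.74 in ΔtR(CCU)J, and rose by 1.91 (standard error 0.15, adjusted p = 0.000735). HXK1, a hexokinase, rose by 2.20 (adjusted p = 0.0374) and GSY2, a glycogen synthase, by 1.30 (adjusted p = 0.0165). The others were TPS1, TPS2, PGM2, GPH1, GLK1, PRB1 and TMA17, by 0.68 to 1.31. TSL1 was also called between the SC and MC groups, by 0.99 (limma, adjusted p = 0.00631). It was the 1 call among the 27 (3.7%, against 0.22% of all genes). TSL1 read 7.67 and 7.63 in ΔtM(CAU), 7.94 and 7.82 in ΔtL(GAG)G and 7.26 to 7.57 on the MC arrays. The group difference thus came mainly from ΔtR(CCU)J.

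Of 27 stress regulators measured, 3 (11.1%) were called in ΔtR(CCU)J against wild type, close to the 8.56% of all genes called in either direction. All 3 rose (against 6.63% of all genes) and 0 fell (against 1.93%). They were YAP1, the oxidant-responsive activator, by 0.89 (adjusted p = 0.0252), YAK1, a kinase opposed by protein kinase A, by 0.66 and HSF1, the heat shock factor, by 0.61. Transcript levels of MSN2 were 8.27, 8.34 and 7.95 in wild type and 8.93 and 8.34 in ΔtR(CCU)J, and those of MSN4 5.76, 6.03 and 5.83 against 6.58 and 6.34, with 0 calls. Against the other 4 deletions 7 regulators (25.9%, against 11.8% of all genes) rose, YAP1, YAK1 and HSF1 with RIM15, CYR1, PDE1 and IRA1, by 0.54 to 0.79. Of 20 chaperone genes driven mainly by Hsf1, 0 were called in ΔtR(CCU)J by limma, with a median of 0.45. The 4 at an unadjusted p under 0.05 (20%) were a lower share than the 31.7% of all genes. Between the SC and MC groups 0 were called, but 10 of the 20 had an unadjusted p under 0.05, against 29.7% of all genes. All 10 were higher, and the median was 0.53, against 0.11 for all genes. Replicate 1 of both MC strains was low in these genes (median deviations -0.51 and -0.46), as was wild-type replicate 2 (-0.46). In ΔtM(CAU) 3 of the 20 had an unadjusted p under 0.05 (15%, against 2.17% of all genes), with 0 calls.

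Close relatives of the stress genes outside the list were compared in ΔtR(CCU)J. Of 11 such paralogues 0 were called by limma, and at an unadjusted p under 0.05 there were 1 higher and 1 lower, with a median of 0.21, near the 0.17 of all genes. RTN2 rose by 0.75 while RTN1 differed by -0.35 (adjusted p = 0.112), and GCY1 rose by 0.93 while YPR1 differed by 0.21 (adjusted p = 0.533). The main enzymes of the pentose phosphate pathway differed by -0.23 (TKL1), -0.20 (TAL1), -0.05 (SOL3) and -0.04 (GND1), beside 0.54, 1.16, 1.43 and 0.00 for TKL2, NQM1, SOL4 and GND2. HSP104, the cytosolic counterpart of HSP78, differed by 1.08 (adjusted p = 0.0944) in ΔtR(CCU)J and by 1.36 (adjusted p = 0.0505) between the SC and MC groups. The difference between a gene and its relative was not tested.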

How the data were processed

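Total RNA of 13 cultures was hybridised to Affymetrix yeast 2.0 arrays. The authors' methods name RMA background adjustment and normalization between arrays, and their processing notes name GCRMA. Each deposited value is a linear intensity, and after trimming 2% at each end their mean was 500.2 to 500.3 on every array. Log2 of each deposited intensity was taken with no offset. Of 10928 probe sets, 5495 had exactly 1 protein-coding gene and measured 5446 genes; where a gene had several, the brightest was used. Background on an array was the 95th percentile of 1746 probe sets for Schizosaccharomyces pombe. The number of arrays limits the precision. The genome build behind the probe annotation is not given in the sources used here, so no coordinates are printed. Sequences and a planned scan of promoter motifs were not used here.

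Strain means were fitted by limma 3.58.1 under R 4.3.3 (lmFit and eBayes, constant prior variance) in 1 model of all 13 arrays, and p-values were adjusted by Benjamini-Hochberg over all 5446 genes. A gene was called at an adjusted p under 0.05. The procedure was tested on simulated data. All members were counted; values on each array are given for members called, for the 3 with the largest difference in each comparison and for the 3 widest and 3 narrowest wild-type ranges, and any other member named was chosen with its values in view. The members and lists were chosen with earlier results of these data known. Of the 28 regulators and 30 other targets listed, 27 of each were measured.

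Whether replicate numbers pair arrays was checked on 3983 genes outside the list with a mean log2 signal over 8. Same-numbered arrays of deletion strains deviated together in all 10 pairs (r from 0.124 to 0.669), and wild-type arrays did not follow (r from -0.735 to 0.538). This pairing is inferred from the data. Alternatives were the replicate block, the inferred array sets as a block, median centring, quantile normalization, a filter on dim genes, the mean of probe sets, an offset of 16, limma's trended robust prior, models of the compared arrays alone, fits within a replicate number and leaving out each array. Leaving out ΔtR(CCU)J from the SC mean and pairing each array with its nearest wild-type array were added after seeing the data.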

Additional observations from a re-analysis of the deposited data

Results flagged for a closer look

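The effect of the tR(CCU)J deletion on 9 stress genes differed from the mean effect of the other 4 deletions by the test of that difference (limma, adjusted p under 0.05). These were 25.0% of the 36, where 15.2% of all genes were called, and DDR48 was called in 8 of 22 alternatives. On the log2 scale the difference was 2.22 for TMA10, 1.96 for YGP1, 1.88 for GAD1, 1.85 for HSP12, 1.38 for MSC1, 1.38 for TFS1, 0.89 for GCY1, 0.79 for RTN2 and -0.86 for DDR48. No strain has 4 or more arrays, so no test for single outlying arrays within a strain was made, and the SC and MC groups join different strains.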

How the results depend on the processing

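In ΔtR(CCU)J against wild type, all called stress genes kept their direction under every alternative that tested them. The count of 7 was 10 with the replicate block, 14 with the inferred array sets as a block, 4 after median centring, 3 after quantile normalization, 3 among genes with a mean log2 signal over 8 (9 members tested) and 0 in a fit of only the arrays compared. Leaving out 1 array gave 1 to 8. Median centring lowered the median of the 36 genes from 0.72 to 0.52, and within the arrays numbered 1 it was 1.23. GAD1 was called in 20 of 21 alternatives, YGP1 in 9 of 22 and DDR48 in 7 of 22. Against the other 4 deletions the count of 9 was 14 with the inferred array sets, 4 among the brighter genes and 3 to 12 with 1 array left out. Between SC and MC the count of 0 was 2 with the replicate block, 1 among the brighter genes, 2 with an offset of 16, 3 with a trended and robust prior and 0 to 7 with 1 array left out. The block left the count at 0 in the other 4 strains. With 1 array left out, HSP30 in ΔtL(GAG)G ran from -2.20 to 0.092 (without wild-type replicate 2), and HSP78 in ΔtH(GUG)G1 from -1.38 to 0.171 (without its own replicate 1). The share of all genes called in ΔtR(CCU)J against wild type also changed with the fit. It was 0.0918% with only the arrays compared and 22.5% with the inferred array sets as a block. That share is not given here for the fits with 1 array left out. A changed count there does not tell the stress genes from the whole fit. Fewer members or fewer arrays were tested in some of these fits, and otherwise the cause was not tested. XBP1 and TKL2, near background, have the least certain values.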
